A study of Homo sapiens with 4 samples.

Results

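LINC-named RNAs are long noncoding RNAs whose gene symbol is LINC followed by digits, a placeholder given to an intergenic noncoding gene that has no function-based name. They were measured in Caki-1, a human kidney cancer cell line. The count table held 2279 rows with such a symbol among 61533 rows in all, and 1402 of the 2279 (61.5%) held 0 counts in every library. The 169 rows that averaged 20 counts or more over the 4 libraries are described here. The members were thus chosen by their name and mean count, so their levels are a description. The rule itself does not use the difference between the arms, but the members were chosen with earlier results of these data known. The symbol does not settle the gene type. In the annotation GENCODE release 29, 133 of the 169 are typed as long intergenic noncoding RNA, 9 as pseudogenes and 1 as protein-coding. A LINC name is carried there by 129 of the 169.

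The knockdown arm, shTFE3, consisted of 2 libraries from Caki-1 cells transduced with lentivirus that expressed short hairpin RNA against TFE3, a transcription factor. The arm it was set against, shControl, consisted of 2 libraries from the same line transduced with lentivirus carrying a control sequence. Both arms therefore carried a lentivirus. Cells were replated 24 h after infection, puromycin at 1 µg/ml was added 12 h later, and selection lasted 3 days in McCoy's 5A medium with 10% serum. How many hairpins were used, and whether the 2 libraries of an arm came from separate infections, is not stated, so the p-values measure only the spread between these libraries, which may be technical. The study asked which genes depend on TFE3 in these cells.

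TFE3 belongs to the MiT family of basic helix-loop-helix leucine zipper factors, which bind E-box letters in DNA and are known for regulating lysosomal and metabolic genes; TFE3 gene fusions drive a subtype of renal cell carcinoma. Long noncoding RNAs are transcribed by RNA polymerase II and are often spliced and polyadenylated, but carry no long conserved reading frame. Some act where they are made, on neighbouring genes, some act elsewhere in the cell, and for most LINC-named genes no role is known. The libraries were made from RNA captured on oligo-dT beads, so RNAs without a poly(A) tail are poorly represented.

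Totals per library lay between 17270180 and 17742519 counts. TFE3 had 1259 and 1190 counts in the shTFE3 libraries, against 2231 and 2179 counts in the shControl libraries, which is -0.92 ± 0.06 SE on the log2 scale (adjusted p = 5.6e-11 in edgeR). SLC36A1, the amino acid transporter gene named in the study's title, changed by -0.64 on the log2 scale (edgeR adjusted p = 1.8e-05). Among markers of renal epithelium and Caki-1, PAX8, KRT8, KRT18 and VIM were abundant, EPCAM held 8 to 21 counts, KRT19 held at most 2 counts, and PAX2 was at 0 in every library. Of these markers LHX1, CDH2 and KRT18 fell by 0.80, 0.64 and 0.28 on the log2 scale (edgeR adjusted p = 9.25e-07, 2.45e-06 and 0.00191) and CA12 rose by 0.28 (edgeR adjusted p = 0.00101). Without shTFE3 replicate 1 the adjusted p was 0.0806 for KRT18 and 0.0808 for CA12, and without shTFE3 replicate 2 it was 0.0679 for KRT18. The endothelial gene CDH5 was at 0, VWF held at most 1 count, and PECAM1 held 68 and 58 counts in shTFE3 against 48 and 54 in shControl; this list summed to 3.84 and 3.32 CPM in shTFE3 and 2.81 and 3.17 CPM in shControl. The leukocyte gene CD3E was at 0, while the leukocyte gene CD14 held 10 and 11 counts in shTFE3 against 2 and 2 in shControl; the leukocyte list summed to between 0.612 and 0.618 CPM (counts scaled to a common library size) in shTFE3 and between 0.117 and 0.176 CPM in shControl. The fibroblast list of 4 genes summed to 19.1 to 19.2 CPM in shTFE3 and 19.7 to 19.9 CPM in shControl. Within it COL1A1 had 112 and 118 counts in shTFE3 against 141 and 143 in shControl, and PDGFRB had 232 and 220 against 197 and 193. Neither was called (edgeR adjusted p = 0.0554 and 0.407), and COL1A2 and DCN held at most 1 count. The part of these markers in the results was not tested. Fewer transcripts per cell and fewer cells making a transcript cannot be told apart in these bulk libraries.

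Together the 169 LINC-named RNAs held little of each library. Their summed counts were 29100 and 26723 in the shTFE3 libraries, or 0.164% and 0.152% of the total, and 28026 and 28123 in the shControl libraries, or 0.162% and 0.163%. The lowest sum was that of shTFE3 replicate 2, and the sums of the arms overlapped. The mean count per gene had a median of 55.5 and reached 3666.25. It was under 50 for 71 genes, at least 300 for 20, and the 10 most abundant genes held 44.4% of all member counts.

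LINC00958, first described in bladder cancer, was the most abundant by CPM, with 205 and 196 CPM in shTFE3 against 225 and 214 CPM in shControl. Both shTFE3 libraries were lower than both shControl libraries, but the difference of -0.13 on the log2 scale was not called (edgeR adjusted p = 0.0967). LINC00472, reported as a growth-restraining RNA in breast cancer, had 144 and 118 CPM in shTFE3 against 133 and 142 CPM in shControl. Its arms overlapped (log2 fold change -0.08, edgeR adjusted p = 0.489). LINC02015, with 64.0 and 47.7 CPM in shTFE3 against 59.6 and 51.4 CPM in shControl, also overlapped between arms (log2 fold change 0.01). LINC00958 and LINC00472 together held 21.5% of the member counts.

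Of the other abundant genes, LINC03061, LINC01139, LINC01278 and LINC00973 were not called, with log2 fold changes of -0.18, -0.07, -0.02 and -0.25. LINC01139 is known as LINK-A in breast cancer, and LINC00973 has been studied in clear cell renal carcinoma as a regulator of SIGLEC15. LINC00973 had 25.9 and 21.7 CPM in shTFE3, against 28.3 and 28.2 CPM in shControl. Both shTFE3 libraries were the lower ones, and edgeR's adjusted p was 0.0568. Scaled to exon length, which allows genes to be compared, LINC00958 had the highest mean level, 69.9 CPM per kilobase in shTFE3 against 76.6 in shControl. LINC00472 followed with 37.9 CPM per kilobase in shTFE3 against 40.0 in shControl. LINC00674, named after its values were seen, had 30.0 CPM per kilobase in shTFE3 against 34.7 in shControl, LINC00973 had 24.7 against 29.3, and LINC02015 had 18.6 against 18.5, in the same order of arms.

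After knockdown 38 of the 169 LINC-named RNAs changed, 14 of them upward and 24 downward (edgeR's quasi-likelihood test on all genes, two-sided, Benjamini-Hochberg adjusted p under 0.05). That is 22.5% of the 169, near the background: 23.3% of the 15950 genes tested were called, 10.3% as rises and 12.9% as falls. The share that rose was 8.28% and the share that fell 14.2%. The 15950 include genes that averaged under 20 counts, which the 169 do not, and 13977 of them averaged 20 or more. Shares at matched levels are given further below. The median log2 fold change of the 169 was 0.013, with quartiles of -0.27 and 0.29, beside 0.0015 for all genes tested.

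The median absolute log2 fold change was 0.72 among the 38 and 0.37 among all genes called. At least 2-fold changes were called in 11 of the 169 (6.51%), 3 rises and 8 falls, against 2.17% of all genes tested, 0.991% for rises and 1.18% for falls. The 169 lie lower in the libraries, with a median mean count of 55.5 beside 339.8 for all genes tested, and low counts give wider errors; the part of level in this share was not tested. In 99 of the 169 (58.6%) the CPM values of the arms did not overlap, 50 with shTFE3 higher and 49 with shTFE3 lower, and all 38 genes called were among them. The background for arms that do not overlap was 60.3% of genes tested, 29.8% higher and 30.5% lower.

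**Figure D1:**
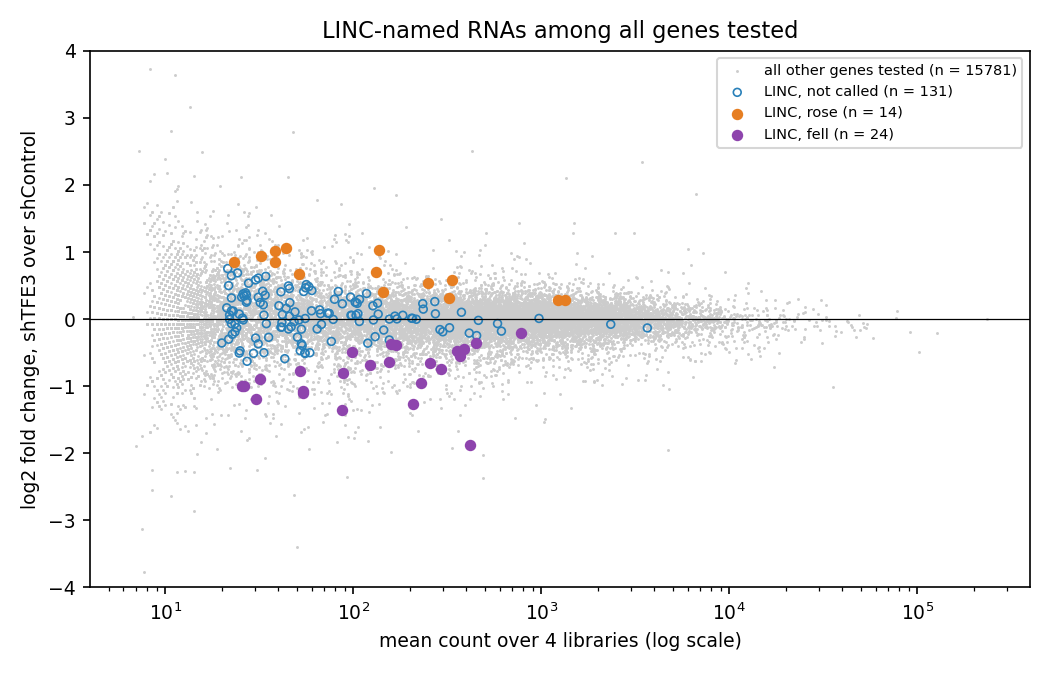
Log2 fold change, shTFE3 over shControl, against the mean count over the 4 libraries (log scale), 1 point per gene. Of the 169 LINC-named RNAs, 14 rose and 24 fell, on a background of the other genes tested. The 169 lie between mean counts of 20 and 3666.25, with a median of 55.5 beside 339.8 for all genes tested.

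The share called was higher at higher levels. Of the 71 genes that averaged 20 to under 50 counts, 9 were called (12.7%), beside 10.8% of all genes tested at that level, and their median standard error was 0.28 on the log2 scale. From 50 to under 100 counts, 7 of 37 were called (18.9%, beside 18.2%). From 100 to under 300 counts, 12 of 41 were called (29.3%, beside 21.0%). At 300 counts or more, 10 of 20 were called (50%, beside 31.4%), and the median standard error was 0.09. The LINC share and the share of all genes both grew with level, and at each level the LINC share was the higher one; the difference was not tested.

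**Figure D2:**
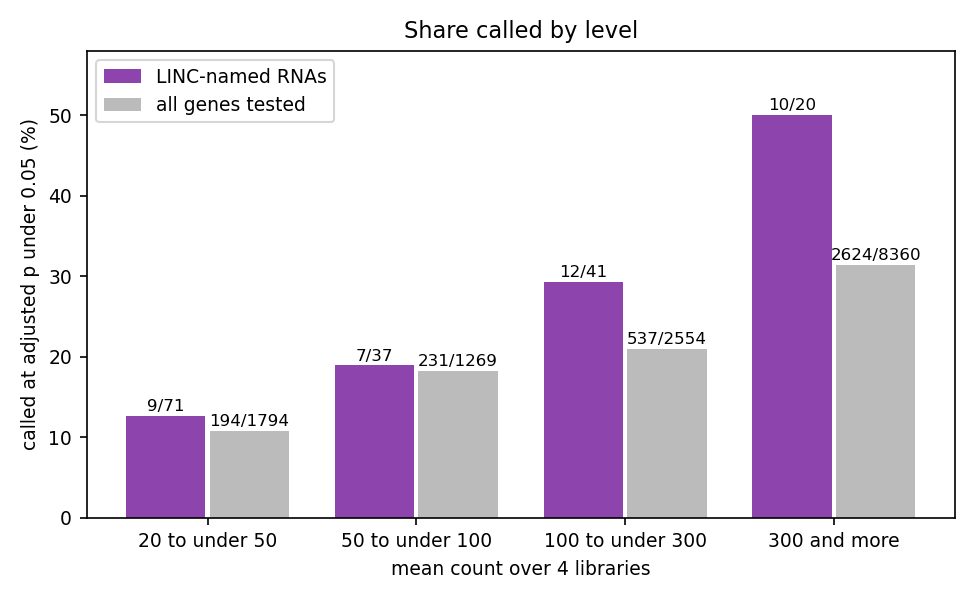
Percentage of genes called at an adjusted p under 0.05, in 4 bands of mean count over the 4 libraries; left bars are LINC-named RNAs, right bars all genes tested, with the number called over the number in the band above each bar. Both shares rise with level, to 50% of 20 LINC-named RNAs and 31.4% of all genes at 300 counts or more.

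LINC02532 fell the most. It is a multi-exon gene on the minus strand of chromosome 6, bases 106717452 to 106787541 in GENCODE release 29 on GRCh38, and has been studied in renal cell carcinoma and gastric cancer. It had 190 and 181 counts in the shTFE3 libraries, or 10.6 and 10.2 CPM, against 618 and 684 counts, or 36.2 and 40.2 CPM, in the shControl libraries. The replicates of each arm lay close together and far from the other arm, and the shTFE3 mean was 27.2% of the shControl mean (log2 fold change -1.88 ± 0.10 SE, edgeR adjusted p = 3.81e-13). Its exons overlap no exon of another gene in that annotation, and the nearest coding gene, QRSL1, a mitochondrial amidotransferase subunit 49035 bases away, was not called (log2 fold change 0.16, edgeR adjusted p = 0.278). The call held with each library left out in turn and under every other fit tried.

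LINC01111, on the plus strand of chromosome 8 (bases 76406654 to 76524356), had 2.28 and 3.37 CPM in shTFE3 against 6.98 and 7.46 CPM in shControl. Both shTFE3 libraries were below both shControl libraries (log2 fold change -1.35 ± 0.18 SE, edgeR adjusted p = 4.83e-06). Its exons overlap those of LINC01109 on the same strand, and reads in the shared stretch cannot be given to one of the pair. LINC02889, on the minus strand of chromosome 7 (bases 17405479 to 17558909), had 8.35 and 5.85 CPM in shTFE3 against 15.8 and 18.4 CPM in shControl. Again the arms stood apart (log2 fold change -1.26 ± 0.14 SE, edgeR adjusted p = 1.92e-07). It lies antisense within the body of a coding gene model that has only an identifier, ENSG00000283321; that gene was too low to test, and since the strand setting of the counting is not given, intronic reads of that gene that fall in exons of LINC02889 cannot be told apart from its own. Both calls held with each library left out in turn.

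The other 5 falls of at least 2-fold were in RNAs of low level. LINC02593, a single-exon RNA on the minus strand of chromosome 1 (bases 916865 to 921016), had 2.28 and 1.69 CPM in shTFE3 against 4.16 and 4.40 CPM in shControl, and LINC01085, on the plus strand of chromosome 4 (bases 14111968 to 14140052), had 2.28 and 1.74 CPM against 4.22 and 4.23 CPM. Neither overlapped between arms. On the log2 scale LINC02593 changed by -1.11 ± 0.21 SE, with an edgeR adjusted p of 0.000373, and LINC01085 by -1.07 ± 0.21 SE, with an edgeR adjusted p of 0.000505. Both calls were lost without shTFE3 replicate 2, at edgeR adjusted p values of 0.0632 and 0.0641.

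LINC00488, on the plus strand of chromosome 3 (bases 109178143 to 109216965), had 1.06 and 1.07 CPM in shTFE3 against 2.29 and 2.58 CPM in shControl, from 19 and 19 against 39 and 44 counts. Its arms did not overlap (log2 fold change -1.19 ± 0.27 SE, edgeR adjusted p = 0.00199), but the call was lost without shTFE3 replicate 1 (edgeR adjusted p = 0.0646) or replicate 2 (0.0717). LINC01179, on the plus strand of chromosome 4 (bases 165684639 to 165762778), had 1.17 and 0.843 CPM in shTFE3 against 1.93 and 2.11 CPM in shControl. LINC02454, on the plus strand of chromosome 12 (bases 65602869 to 65612997), reported in thyroid cancer, had 1.06 and 0.899 CPM in shTFE3 against 1.64 and 2.29 CPM in shControl. Neither RNA overlapped between arms, and both fell by 1.00 on the log2 scale (edgeR adjusted p = 0.0140 for LINC01179 and 0.0174 for LINC02454). Without shTFE3 replicate 1, shTFE3 replicate 2 or shControl replicate 2, edgeR's adjusted p was 0.0673, 0.154 and 0.100 for LINC01179 and 0.126, 0.191 and 0.257 for LINC02454.

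LINC01910, LINC00607 and LINC01134 rose at least 2-fold. LINC00607, a chromatin-associated RNA known from endothelial cells, lies on the minus strand of chromosome 2 (bases 215611563 to 215843722). It had 195 and 180 counts in shTFE3, or 10.9 and 10.1 CPM, against 89 and 86 counts, or 5.22 and 5.05 CPM, in shControl. The replicates of each arm lay close together and the arms far apart (log2 fold change 1.03 ± 0.14 SE, edgeR adjusted p = 4.82e-06), and the call held with each library left out. An exon of it overlaps an exon of an antisense gene in release 29, and reads there cannot be told apart without strand.

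LINC01910, on the minus strand of chromosome 18 (bases 70380140 to 70384591), had 3.73 and 2.98 CPM in shTFE3 against 1.70 and 1.53 CPM in shControl. Both shTFE3 libraries were higher (log2 fold change 1.05 ± 0.24 SE, edgeR adjusted p = 0.00164), and the call was lost without shTFE3 replicate 1 (edgeR adjusted p = 0.0768). LINC01134, studied in liver cancer, lies on the plus strand of chromosome 1 (bases 3900372 to 3917225) and had 2.78 and 3.04 CPM in shTFE3 against 1.17 and 1.70 CPM in shControl. Its arms also stood apart (log2 fold change 1.01 ± 0.25 SE, edgeR adjusted p = 0.00414). Its call was lost without shTFE3 replicate 1, shTFE3 replicate 2 or shControl replicate 1, at edgeR adjusted p = 0.0780, 0.120 and 0.0931. DESeq2 called 6 of the 11 RNAs that changed at least 2-fold, and not LINC00488, LINC01179, LINC02454, LINC01134 or LINC01910. Without the filter on low counts, when far more genes enter the fit, edgeR called LINC02532 and LINC00607 (adjusted p = 0.0290 and 0.0415) and no other of the 169.

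**Figure D3:**
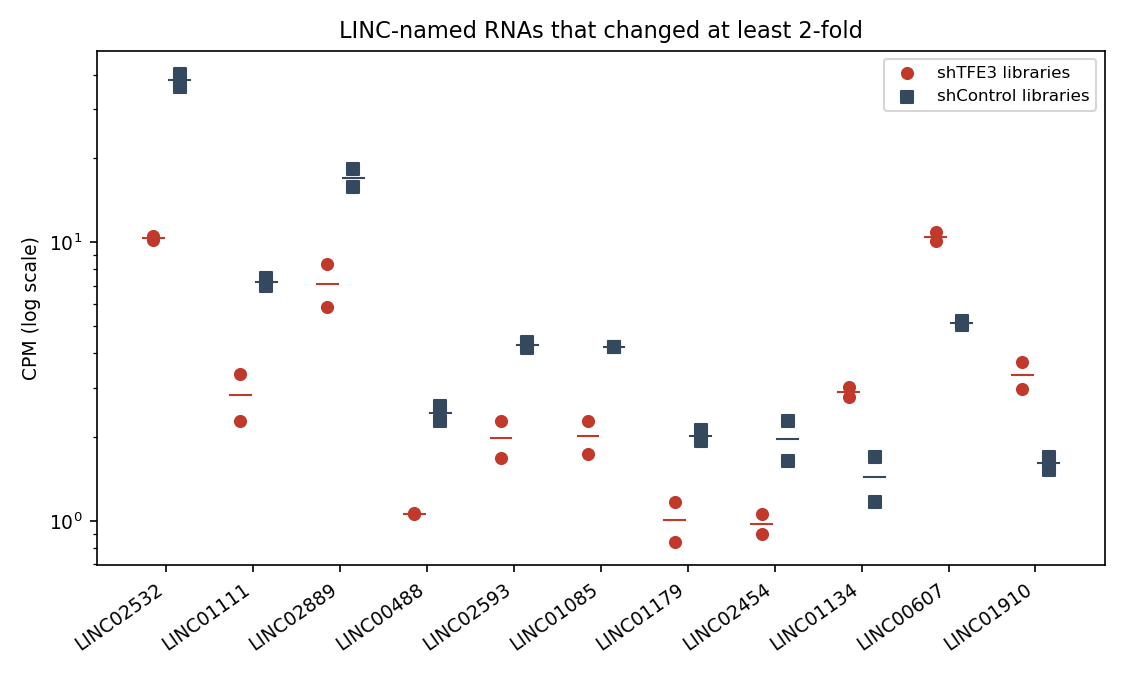
CPM (log scale) of the 11 LINC-named RNAs that changed at least 2-fold, ordered by log2 fold change; circles are the 2 shTFE3 libraries, squares the 2 shControl libraries, and short lines the means. LINC02532 has 10.6 and 10.2 CPM in shTFE3 against 36.2 and 40.2 CPM in shControl, and in none of the 11 do the arms overlap.

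Among the smaller falls, LINC02615 on chromosome 4 had 8.40 and 9.67 CPM in shTFE3 against 16.7 and 18.4 CPM in shControl. The arms stood apart, and the call held with each library left out (log2 fold change -0.96 ± 0.12 SE, edgeR adjusted p = 9.55e-07). LINC01836, LINC01776 and LINC03052 fell by 0.90, 0.80 and 0.77 on the log2 scale (edgeR adjusted p = 0.0208, 0.00206 and 0.00737). All 3 calls were lost without shTFE3 replicate 1, at 0.0611, 0.0665 and 0.0832, or without shTFE3 replicate 2, at 0.244, 0.175 and 0.0831. LINC01836 and LINC01776 were also lost without shControl replicate 1, at 0.164 and 0.0638. The other 12 genes that fell had log2 fold changes between -0.74 (LINC01320) and -0.21 (LINC00511), and each of these calls was lost without shTFE3 replicate 1, without shTFE3 replicate 2, or without each of them. LINC01320 had 13.7 and 11.4 CPM in shTFE3, against 19.6 and 22.5 CPM in shControl. Its arms did not overlap (edgeR adjusted p = 1.86e-05), and without shTFE3 replicate 2 the adjusted p was 0.0601. LINC00511, an abundant RNA reported to promote growth in several cancers, had 39.8 and 43.3 CPM in shTFE3 against 47.1 and 48.8 CPM in shControl. Its arms did not overlap, but the call was close to the threshold (edgeR adjusted p = 0.0479) and was lost whichever library was left out, at 0.266 and 0.0986 without shTFE3 replicates 1 and 2 and at 0.102 and 0.245 without shControl replicates 1 and 2.

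Among the smaller rises, LINC02861 on chromosome 16 had 22.4 and 23.6 CPM in shTFE3 against 14.9 and 15.6 CPM in shControl. The arms stood apart (log2 fold change 0.59 ± 0.10 SE, edgeR adjusted p = 5.91e-05), and the call held with each library left out. Of the abundant genes, a pair rose: LINC00205, studied in liver cancer, had 87.7 and 79.5 CPM in shTFE3 against 67.1 and 70.7 CPM in shControl, and LINC00963, studied in prostate cancer, had 73.8 and 80.0 CPM against 66.1 and 59.5 CPM. In both the shTFE3 libraries were the higher ones, by 0.28 and 0.29 on the log2 scale (edgeR adjusted p = 0.0035 and 0.0033). LINC00205 was not called without shTFE3 replicate 1 (0.125), shTFE3 replicate 2 (0.0508) or shControl replicate 1 (0.0564), and LINC00963 not without shTFE3 replicate 1 (0.0642), shTFE3 replicate 2 (0.166) or shControl replicate 2 (0.106).

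The other 8 genes that rose were LINC01914, LINC02043, LINC00475, LINC01436, LINC00665, LINC01963, LINC00623 and LINC00942, with log2 fold changes of 0.94, 0.86, 0.84, 0.70, 0.67, 0.54, 0.40 and 0.31. Their arms did not overlap, and edgeR's adjusted p ranged from 0.000733 (LINC01963) to 0.0435 (LINC02043). Each of these calls was lost without shTFE3 replicate 1; the adjusted p was then 0.114, 0.150, 0.158, 0.0626, 0.0987, 0.0609, 0.103 and 0.102 in the same order. All but LINC01436 and LINC01963 were also lost without shTFE3 replicate 2, at 0.116 (LINC00475) to 0.208 (LINC00623). Without shControl replicate 1, LINC02043, LINC00475, LINC00665, LINC00623 and LINC00942 were not called, at 0.056 (LINC00623) to 0.201 (LINC00475), and without shControl replicate 2, LINC01914, LINC02043 and LINC00623 were not, at 0.201 (LINC01914) to 0.255 (LINC00623). In all, 6 of the 38 calls held with each library left out in turn, namely LINC02532, LINC01111, LINC02889, LINC02615, LINC02861 and LINC00607. How many calls over all genes held in this way was not counted, so these 6 cannot be set against a background. Calls also dropped among all genes when a shTFE3 library was left out. DESeq2 called 19 of the 38. Of the 131 genes not called, log2 fold changes ranged from -0.63 to 0.75. At an unadjusted p under 0.05, 64 of the 169 passed. The share of all genes tested that passed this threshold was not counted, so the 64 cannot be set against a background.

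Just inside the level that chose the genes lay LINC02918, LINC00638 and LINC00943, with mean counts of 20, 21.25 and 21.5. LINC02918 had 15 and 21 counts in shTFE3 against 27 and 17 in shControl, and LINC00943 had 29 and 26 against 16 and 15. Just outside lay LINC02516 and LINC01376, both with a mean of 19.5 counts, and LINC00882 with 19.75. LINC02516 had 16 and 10 counts in shTFE3 against 23 and 29 in shControl, a log2 fold change of -1.06, past the 2-fold size used here.

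The sequences around the transcription start are shown for 3 genes with called changes of at least 2-fold and for 3 genes that hold the letters bound by TFE3's family. RefSeq's table on GRCh38.p14 had an entry for 110 of the 169, each covering 250 bases before and 50 after RefSeq's own start of the gene. That start can differ from the one in GENCODE release 29: it lay within 250 bases of it for 80 of the 110 and further away for 30, by up to 135265 bases (LINC02615). CACGTG, the E-box core, and TCACGTGA, a longer form that contains it, read the same on both strands. Among the 110, 6 held CACGTG (5.45%), beside 2548 of all 35116 promoters in the table (7.26%), and 2 held TCACGTGA (1.82%), beside 344 (0.98%). CACGTG stood in 0 of 9 genes that rose, 1 of 14 that fell (LINC01508) and 5 of 87 not called (LINC01285, LINC01703, LINC01278, LINC00863 and LINC01504). All 6 are among the 80 windows near the release 29 start; of those 80, 7 belong to genes that rose, 10 to genes that fell and 63 to genes not called. The median G and C content of the windows was 61.3% in genes that rose, 49.8% in genes that fell and 56.3% in genes not called, beside 58.7% in all promoters. A match only says that the letters occur, and where there is none it says only that they are not in this window.

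The windows of 3 genes that fell or rose at least 2-fold follow, LINC02889 at chr7:17558860-17559159 (minus strand), LINC01085 at chr4:14111718-14112017 (plus strand) and LINC00607 at chr2:215843487-215843786 (minus strand), in lower case because none holds CACGTG. RefSeq's start is that of release 29 for LINC02889 and LINC01085, and for LINC00607 it lies 186 bases inside the release 29 gene.
LINC02889: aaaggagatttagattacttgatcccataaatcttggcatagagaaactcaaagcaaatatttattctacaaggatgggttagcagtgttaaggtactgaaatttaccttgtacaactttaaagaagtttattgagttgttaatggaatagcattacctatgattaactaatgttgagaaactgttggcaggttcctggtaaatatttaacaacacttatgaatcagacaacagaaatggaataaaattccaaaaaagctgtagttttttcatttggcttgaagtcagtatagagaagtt
LINC01085: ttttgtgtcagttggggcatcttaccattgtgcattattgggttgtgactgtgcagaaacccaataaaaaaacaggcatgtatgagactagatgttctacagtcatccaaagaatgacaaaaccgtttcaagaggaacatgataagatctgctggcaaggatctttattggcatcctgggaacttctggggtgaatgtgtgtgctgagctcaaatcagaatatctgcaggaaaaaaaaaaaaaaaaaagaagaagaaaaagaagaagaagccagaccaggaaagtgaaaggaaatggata
LINC00607: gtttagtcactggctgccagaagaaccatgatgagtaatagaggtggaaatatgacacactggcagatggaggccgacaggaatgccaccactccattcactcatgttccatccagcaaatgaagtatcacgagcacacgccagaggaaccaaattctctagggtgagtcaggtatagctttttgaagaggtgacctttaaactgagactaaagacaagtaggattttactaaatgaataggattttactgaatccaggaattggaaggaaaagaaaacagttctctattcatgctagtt

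The windows of LINC01508 at chr9:90433440-90433739 (minus strand), LINC01703 at chr1:226083325-226083624 (plus strand) and LINC01278 at chrX:63561046-63561345 (minus strand) hold the letters, which are set in capitals; LINC01703 and LINC01278 hold the longer form.
LINC01508: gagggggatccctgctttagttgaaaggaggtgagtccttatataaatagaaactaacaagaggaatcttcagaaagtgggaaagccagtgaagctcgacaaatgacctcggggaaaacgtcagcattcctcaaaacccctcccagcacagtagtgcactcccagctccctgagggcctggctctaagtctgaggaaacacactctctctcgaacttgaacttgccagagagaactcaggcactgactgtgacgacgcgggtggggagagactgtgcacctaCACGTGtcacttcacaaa
LINC01703: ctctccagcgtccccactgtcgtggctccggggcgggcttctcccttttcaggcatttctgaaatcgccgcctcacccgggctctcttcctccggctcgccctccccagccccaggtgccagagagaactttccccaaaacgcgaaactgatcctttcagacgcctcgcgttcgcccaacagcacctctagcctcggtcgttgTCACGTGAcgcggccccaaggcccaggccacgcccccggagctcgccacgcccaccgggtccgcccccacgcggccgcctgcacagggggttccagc
LINC01278: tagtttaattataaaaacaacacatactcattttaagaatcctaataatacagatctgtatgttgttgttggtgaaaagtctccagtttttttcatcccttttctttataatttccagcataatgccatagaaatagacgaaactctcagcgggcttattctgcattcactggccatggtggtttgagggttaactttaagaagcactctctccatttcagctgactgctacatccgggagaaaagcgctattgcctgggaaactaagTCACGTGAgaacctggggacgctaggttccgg

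LINC01508, whose window holds the short form, had 12.2 and 10.6 CPM in shTFE3 against 19.5 and 16.3 CPM in shControl. The arms did not overlap (log2 fold change -0.65 ± 0.12 SE, edgeR adjusted p = 0.000168), and without shTFE3 replicate 2 the adjusted p was 0.0956. LINC01703 and LINC01278, which hold the longer form, were not called, with log2 fold changes of -0.11 and -0.02 (edgeR adjusted p = 0.763 and 0.909).

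Many LINC-named genes lie close to coding genes, and this matters for counting, since the sources used here do not say whether reads were assigned by strand. In release 29, 7 of the 169 have an exon that overlaps an exon of a coding gene, 7 lie within or across a coding gene body only, 36 lie within 5000 bases of one, and 119 lie further away. The 7 with an exon overlap are LINC01089 with RHOF (1724 bases, same strand), LINC03033 with ENSG00000258989 (360 bases), LINC01232 with TM9SF2 (351 bases, antisense), LINC00960 with ZNF717 (319 bases, antisense), LINC00294 with CSTF3 (263 bases, antisense), LINC00863 with NUTM2D (215 bases, same strand) and LINC01176 with ENSG00000281593 (102 bases, same strand). For these, reads of the pair cannot be told apart, and 0 of the 7 was called. Of the 7 within a gene body, 1 was called (LINC02889), of the 36 nearby 9, and of the 119 further away 28. The others within or across a gene body are LINC01278 (SPIN4) and LINC02878 (ZNF707), on the same strand, and, antisense, LINC00174 (TPST1), LINC00462 (RB1), LINC01237 (FAM240C) and LINC01303 (ENSG00000258989). SPIN4 fell by 0.36 on the log2 scale (edgeR adjusted p = 0.0189). The part of this overlap in the values of LINC01278 was not tested. Exons of 56 genes overlap an exon of any gene, coding or not, and 9 of these were called. A set of 17, LINC00863 among them, have an exon stretch of at least 300 bases at 98% identity or more elsewhere in the annotated transcripts, so that their counts are uncertain; 3 of them were called, LINC01116, LINC00342 and LINC00623.

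The nearest coding gene was also tested for 136 of the 169. Over these 136 pairs the log2 fold changes had a Pearson r of 0.25 and a Spearman rho of 0.20, as a description of pairs measured in the same 4 libraries. For 43 pairs that overlap or lie within 5000 bases r was 0.49 and rho 0.35; without LINC02593, whose neighbour has the largest change, r was 0.34 and rho 0.31 over 42 pairs. For the 93 pairs further apart r was 0.17 and rho 0.12. Among 33 called genes with a tested neighbour, 9 neighbours were called (27.3%), all in the same direction as the LINC-named gene. That shared direction depends on taking the gene whose body is nearest. By nearest start, LINC00942, which rose, has WNT5B at 29366 bases, which fell by 0.38 (edgeR adjusted p = 0.00227). LINC02861, which also rose, then has CREBBP, which rose by 0.30 (edgeR adjusted p = 0.000637). Directions by nearest start were not counted. Among 103 genes not called, 28 neighbours were called (27.2%). Most of these 28 also had the sign of the LINC-named gene, and the others had the opposite sign. Some coding genes, such as CEBPB and SAMD11, are the neighbour of several members, so the pairs are not all separate.

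Of these 9 neighbours, 3 lie close by and are transcribed away from the LINC-named gene, from starts that face away from each other. SAMD11, 2912 bases from LINC02593, had 4.01 and 2.64 CPM in shTFE3 against 7.45 and 7.81 CPM in shControl. PGRMC2, a haem-binding membrane protein gene 3922 bases from LINC02615, had 136 and 133 CPM in shTFE3 against 177 and 186 CPM in shControl. In both the shTFE3 libraries were the lower ones, by -1.19 ± 0.18 (SE) for SAMD11 and -0.44 ± 0.06 (SE) for PGRMC2 on the log2 scale (edgeR adjusted p = 1.81e-05 and 3.28e-06). RUNX1, a transcription factor gene 671 bases from LINC01436, had 89.4 and 87.5 CPM in shTFE3 against 72.3 and 75.1 CPM in shControl. Both shTFE3 libraries were higher, by 0.26 ± 0.06 SE on the log2 scale (edgeR adjusted p = 0.0033), and LINC01436 itself had 10.1 and 8.49 CPM in shTFE3 against 5.75 and 5.69 CPM in shControl. Without shTFE3 replicate 1, shTFE3 replicate 2 or shControl replicate 1 the adjusted p of RUNX1 was 0.0746, 0.0694 and 0.0607.

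The other 6 called neighbours lie between 49940 and 215747 bases away. ZFHX4, a zinc finger homeobox gene next to LINC01111, had 101 and 87.7 CPM in shTFE3 against 133 and 127 CPM in shControl and fell by 0.47 on the log2 scale (edgeR adjusted p = 8.89e-06), a call that held with each library left out. MSRB3, a methionine sulfoxide reductase gene next to LINC02454, DPYD, a pyrimidine-catabolism gene next to LINC01776, and ATP6V1H, a proton pump subunit gene next to LINC02984, fell by 0.34, 0.27 and 0.21 (edgeR adjusted p = 0.00309, 0.0467 and 0.0137), and each of these calls was lost without shTFE3 replicate 1 (0.0945, 0.104 and 0.144) or shTFE3 replicate 2 (0.112, 0.225 and 0.0728). MSRB3 was also lost without shControl replicate 2 (0.0828), DPYD without shControl replicate 1 (0.200) or 2 (0.117), and ATP6V1H without shControl replicate 1 (0.132). MREG, the melanoregulin gene next to LINC00607, had 9.02 and 5.68 CPM in shTFE3 against 4.46 and 4.58 CPM in shControl. Its shTFE3 libraries were higher but unequal (log2 fold change 0.70, edgeR adjusted p = 0.00705), and without shTFE3 replicate 1 the change was 0.33 with an adjusted p of 0.238. SOCS6, an adaptor of cytokine signalling next to LINC01910, rose by 0.36 on the log2 scale (edgeR adjusted p = 0.000666), with adjusted p = 0.0776 and 0.0859 without shTFE3 replicates 1 and 2. DESeq2 did not call DPYD (adjusted p = 0.314) or MREG (adjusted p = 0.113). C1orf174, whose start lies 79 bases from that of LINC01134 in the opposite orientation, was not called (log2 fold change -0.14, edgeR adjusted p = 0.246).

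**Figure D4:**
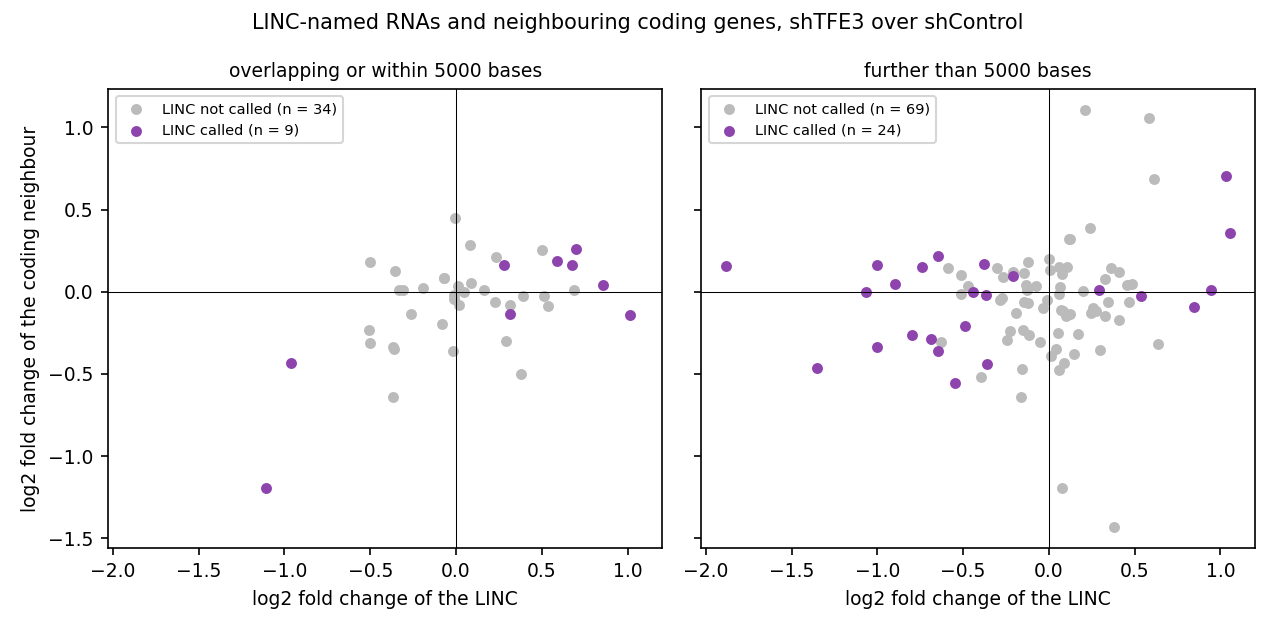
Log2 fold change of the neighbouring coding gene against that of the LINC-named RNA, shTFE3 over shControl, 1 point per pair; the left panel holds the 43 pairs that overlap or lie within 5000 bases and the right panel the 93 pairs further apart. The 9 pairs with both genes called lie in the lower left and upper right parts of the panels, and the low left point is LINC02593 with SAMD11 at -1.11 and -1.19.

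By chromosome, 4 of the 6 members on chromosome 4 were called and all 4 fell (LINC02615, LINC01085, LINC01179 and LINC01182), a set singled out after the values were seen. Over all 615 genes tested on chromosome 4, 27.6% were called and 19.5% fell. LINC01182 and LINC01085 lie 134893 bases apart, and LINC01182 had 19.4 and 18.5 CPM in shTFE3 against 23.9 and 27.5 CPM in shControl. Its arms did not overlap (log2 fold change -0.44, edgeR adjusted p = 0.0012), and the call was lost without shTFE3 replicate 1 (0.0756) or 2 (0.115). Chromosome 2 held 17 members, of which 3 rose and 4 fell, beside 21.6% called of all 1048 genes tested there. Of the 8 members on the X chromosome 0 were called at an adjusted p under 0.05, beside 25.2% of all 528 genes tested there. Differences between chromosomes were not tested. Of 12 pairs of members within 100000 bases of each other, none had both members called.

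The shTFE3 replicates differed from each other in level. In 117 of the 169 (69.2%) shTFE3 replicate 1 was higher than replicate 2, with a median log2 ratio of 0.12, beside 49.7% and a median of -0.0014 over all 13977 genes tested that averaged 20 counts or more. In shControl replicate 1 was the higher one in 76 (45.0%), with a median of -0.03. The share with shTFE3 replicate 1 higher was 74.1% for microRNA host genes, 60.2% for antisense-named genes, 58.3% for divergent-transcript names, 58.4% for formerly LINC-named genes, 47.6% for SNHG genes, 68.4% for the other named long noncoding RNAs and 48.1% for coding genes. Leaving out shTFE3 replicate 1 gave 13 calls, 2 rises and 11 falls, which is 7.69% of the 169 beside 9.22% of all genes in that fit. Leaving out shTFE3 replicate 2 gave 11 calls, 5 rises and 6 falls, which is 6.51% beside 6.30% of all genes. Calls thus dropped among all genes as among the LINC-named RNAs. The part of the replicate gap in any one result was not tested.

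**Figure D5:**
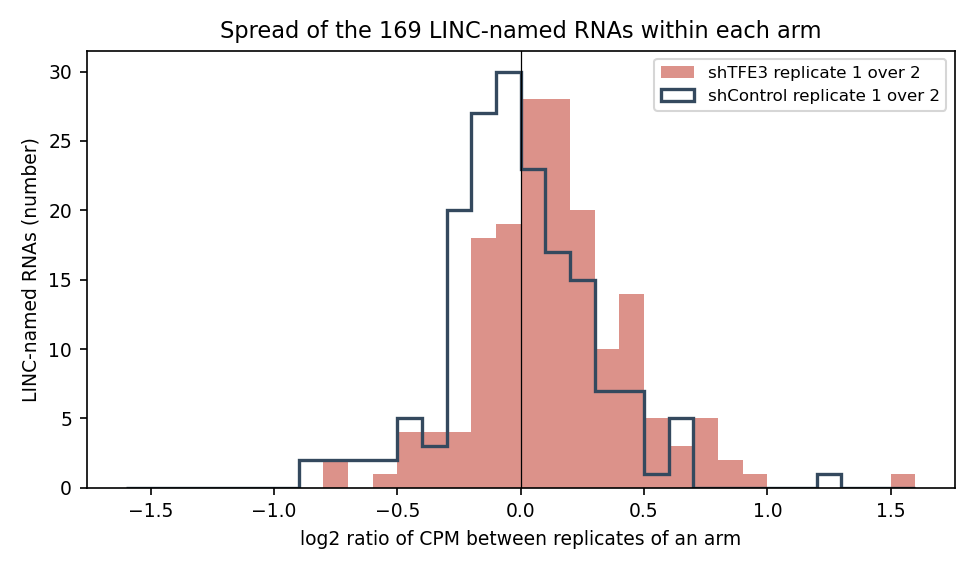
Number of LINC-named RNAs by the log2 ratio of CPM between replicate 1 and replicate 2, filled for shTFE3 and outlined for shControl. The shTFE3 ratios lie mostly to the right of 0 (median 0.12), the shControl ratios around 0 (median -0.03).

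Other gene classes that averaged 20 counts or more are set beside the LINC-named RNAs here, without a test between classes. Of the LINC-named RNAs 8.28% rose and 14.2% fell, and of 352 antisense-named genes 8.81% rose and 3.98% fell. Of 151 genes with a divergent-transcript name, 7.95% rose and 4.64% fell. Of 27 microRNA host genes 11.1% rose and 14.8% fell, and of 21 SNHG genes 33.3% rose and 4.76% fell. Of 89 genes that once had a LINC name and were later renamed, 9 rose and 11 fell, 22.5% in all. Of 12054 coding genes, 12.0% rose and 15.5% fell. Changes of at least 2-fold were called in 6.51% of LINC-named genes, 2.56% of antisense-named genes, 2.25% of formerly LINC-named genes and 1.48% of coding genes. They were called in 0.662% of divergent-transcript names and in 0 microRNA host or SNHG genes. The classes differ in level. The median mean count was 55.5 for LINC-named, 49.9 for antisense-named, 91.5 for formerly LINC-named and 587.75 for coding genes. The part of level in these shares was not tested.

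In a list of other named long noncoding RNAs, 8 of 38 rose and 3 fell. PURPL, an RNA known as a p53 target, had 144 and 120 counts in shTFE3 against 51 and 62 in shControl. Its arms stood apart (log2 fold change 1.15 ± 0.17 SE, edgeR adjusted p = 1.9e-05). LUCAT1, a stress-induced RNA, rose by 0.42 on the log2 scale (edgeR adjusted p = 3.91e-05). NORAD, a binder of Pumilio proteins, and FTX, from the X-inactivation centre, fell by 0.38 and 0.37 (edgeR adjusted p = 0.000151 and 0.00145). SNHG16 and EPB41L4A-AS1 rose by 0.27 and 0.40 (edgeR adjusted p = 0.00131 and 0.0015). Without shTFE3 replicate 2 the adjusted p was 0.0525 for NORAD, 0.159 for FTX, 0.0554 for SNHG16 and 0.0801 for EPB41L4A-AS1, and without shTFE3 replicate 1 it was 0.0665 for SNHG16 and 0.0527 for EPB41L4A-AS1. With DESeq2 the adjusted p of NORAD was 0.0631. The authors' deposited table of 546 selected genes held 0 of the 169 LINC-named RNAs, and all 546 are coding genes in release 29.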

How the data were processed

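Poly(A)-selected RNA was sequenced as paired 150-base reads, 2 shTFE3 and 2 shControl libraries, grouped by the sample titles. The authors deposited raw counts for each Ensembl identifier. The tools named in the submitters' processing notes are STAR, featureCounts, Trim Galore and DESeq2, with genome hg38 and no version. Strand setting, annotation and treatment of multi-mapping reads were not given in the sources used here, and the library protocol in the labels names no strand-marking step. The authors' deposited comparison of selected genes, with mean signal, log2 fold changes, test score and p-values, was used only to count LINC-named genes. The related ChIP data were not analysed here.

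Differences were tested with edgeR 4.0.16 (R 4.3.3): TMM factors, filterByExpr, arm as the only term, quasi-likelihood test, Benjamini-Hochberg adjustment over 15950 genes at 0.05. These genes held 99.8% of counts. Replicates varied by 4.16% (biological coefficient of variation); the fit had 2 residual degrees of freedom and 22.4 prior ones. Replicate counts varied beyond sampling noise (chi-square per degree of freedom 3.65 in shTFE3 and 2.14 in shControl). A count of 3 corresponds to 0.167 to 0.176 CPM. All 169 members passed the filter, and the scripts were tested on simulated data.

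A gene name table gave symbols for 61369 of the identifiers. Coordinates and exon lengths are those of GENCODE release 29, perhaps not the annotation used for counting: 49 of the 169 identifiers carry the same version. Exon stretches were compared with blastn 2.17.0.

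The members and lists were chosen with earlier results of these data known. Named with values were the 12 largest called rises and falls, the 10 genes highest in mean CPM, each called gene with at least a 2-fold change and its coding neighbour, up to 6 other named long noncoding RNAs by smallest p, and the 3 genes on either side of the mean of 20 counts. The rule also asked for the genes most like LINC02532 over the libraries; with 4 libraries this correlation is not reported. Other genes named, such as LINC01320, LINC01508 and LINC01182, were picked with their values in view. The alternatives tried were other normalization factors, other filters, a replicate block, limma-voom (limma 3.58.1), DESeq2 1.42.0, leaving out each library, and other choices of members.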

Additional observations from a re-analysis of the deposited data

How the results depend on the processing

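Of 169 genes, 38 were called, 14 as rises and 24 as falls, 11 of them at least 2-fold, with a median log2 fold change of 0.013. RLE or upper quartile factors also gave 38 calls, with 10 and 11 of them at least 2-fold. With limma-voom 37 were called, 10 of them at least 2-fold. Without the filter on low counts 2 genes were called, 1 rise and 1 fall, both at least 2-fold; that fit called 384 of 31954 genes in all. DESeq2 called 19, 6 as rises and 13 as falls, 6 at least 2-fold, and all 19 were also called by edgeR; its background was 13.6%. Among the 98 genes that averaged 50 counts or more, 29 were called (29.6%), beside 23.3% of all genes tested at any level. Of the 98, 9 rose and 6 changed at least 2-fold. With at least 10 counts, without coding exon overlap, or without near-identical copies (an alternative chosen after seeing the data), 40 of 239, 38 of 162 and 35 of 152 were called. These shares were 16.7%, 23.5% and 23.0%, beside 23.3% of all genes tested. With 1 library left out there were 11 to 30 calls, 2 to 11 rises, 6 to 20 falls, 5 to 13 changes of at least 2-fold, and a median between -0.091 and 0.13; 6.51% to 17.8% of members were then called, beside 6.30% to 15.1% of all genes; the lone sample is assumed to vary like the other arm. The cause of these changes was not tested.

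Some genes that were not called changed sign. With 1 library left out, the log2 fold change lay between -0.23 and 0.057 for LINC00472 (above 0 without shTFE3 replicate 2), between -0.22 and 0.20 for LINC02015 (-0.22 when shTFE3 replicate 1 was left out, -0.094 when shControl replicate 2 was), and between -0.065 and 0.026 for LINC01278 (0.026 when shTFE3 replicate 1 was left out, 0.00056 when shControl replicate 1 was). LINC02015 was also at -0.00073 with no filter and -0.0017 with limma-voom. The cause was not tested.

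With the replicate number as a block, 38 genes were called, 14 rises and 24 falls, 10 at least 2-fold and 37 of them shared with the fit without it; LINC00511 was not called. The deviations of same-numbered libraries had a correlation of -0.03 over the genes tested. With 2 libraries per arm this cannot tell whether same-numbered libraries were handled together, which is not stated. Depth limits the lowest genes most: 71 of the 169 have a mean under 50 counts.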
